A study of Mus musculus with 12 samples.

Results

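LPS-treated macrophages of cGAS-/- mice were compared with LPS-treated macrophages of wild-type (WT) mice, 3 samples per group, which are 6 of the 12 samples in the series. The members of the comparison were chosen by genotype and treatment alone. A gene was tested if it was at 1 or more TPM (a measure of transcript abundance scaled to transcript length and to the sample's total) in at least 3 of these 6 samples, which left 8170 genes. The unit was inferred from the deposited values, which do not share a common total between samples. All samples were bone marrow-derived macrophages (BMDMs), which are macrophages grown in culture from bone marrow cells. The mice were male and 8 weeks old, WT C57BL/6J or cGAS-/- on a C57BL/6J background, and the knockout was of the whole animal. LPS was from E. coli O26:B6, and the other 6 samples (UT) received the media control, also 3 per genotype. The sample labels give the LPS exposure as 100 ng/mL for 1 h, whereas the methods of the study give 150 ng/mL for 24 h, and which of these was used was not settled by the files. The labels also name neutrophils at the RNA extraction step. The study describes the 3 samples of a group as technical replicates, so the p-values measure the spread between these samples and may not cover differences between mice.

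cGAS (gene Cgas) is an enzyme that binds DNA in the cytosol and makes the second messenger cGAMP, which activates STING, the kinase TBK1 and the transcription factor IRF3, and so the transcription of type I interferon. LPS, a component of the outer membrane of Gram-negative bacteria, is sensed by TLR4. In macrophages TLR4 activates NF-kB and AP-1, which drive inflammatory cytokines and chemokines, and also IRF3, so that interferon-beta is made and acts back on the same cells to induce interferon-stimulated genes. Cytokine genes, interferon-stimulated genes, chemokines, phagocytic receptors, proteases and metabolic genes are therefore the groups read out below.

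The values of WT LPS replicate 3 stood apart from those of the other samples. Its deposited values summed to 709802, against 447189 to 503156 in the other 11 samples, and protein-coding genes made up 18.5% of that sum, against 46.6 to 54.4% in the other 5 LPS samples. The ferritin pseudogene Fth-ps3 alone held 31.7% of it. It was at 1 TPM or more for 4394 protein-coding genes, against 5864 to 6488 in the other LPS samples, and it was the lowest of the 6 LPS samples at 4579 of the 6332 protein-coding genes tested. The relative SD, which the fit estimates for each group, was 4.06 for WT LPS and 0.583 for cGAS-/- LPS (3.09 and 0.723 without WT LPS replicate 3). The tests and list counts are therefore also given without this sample. The table held 90.3% of the protein-coding genes of chromosomes 1 to 12 and 65.8% of all protein-coding genes, with chromosome 13 listed in part and nearly no gene of the remaining chromosomes, which are not analysed here. In these bulk samples, fewer cells of a type and less RNA per cell cannot be told apart.

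Below, a gene passed when its adjusted p was under 0.05 (limma, Benjamini-Hochberg adjustment over the 8170 genes), and log2 differences are cGAS-/- minus WT on the log2(TPM + 1) scale, which understates the change of genes near 0. The genotype difference itself differed between LPS and UT cells (limma interaction term) at 0.171% of the genes. Gene positions are on GRCm39 and promoter positions on GRCm38.p6. With all samples 18 genes passed (0.22% of those tested), 8 higher (0.0979%) and 10 lower (0.122%) in cGAS-/- LPS. Of these, 15 also differed by more than 2 on the log2 scale (0.184%), 6 higher (0.0734%) and 9 lower (0.11%). For each of these 18 genes the 3 cGAS-/- LPS samples lay beyond all 3 WT LPS samples, and each also passed without WT LPS replicate 3. Leaving out either of the other WT LPS samples ended nearly all of these calls, since 1 gene passed without WT LPS replicate 1 and 2 genes when WT LPS replicate 2 was left out, and in each case 1 of them (Mir6236) was among the 18. The log2 fold change of Marco, for example, was then 4.21 and 4.32, with limma adjusted p of 0.860 and 0.176, and the log2 fold change of Ifi202b was -7.72 and -7.44, with adjusted p of 0.475 and 0.176. When WT LPS replicate 3 was left out, 81 genes passed (0.991%), of which 27 were higher (0.33%) and 54 lower (0.661%), and 34 of them differed by more than 2 (0.416%), 9 higher (0.11%) and 25 lower (0.306%). An unadjusted p under 0.05 was reached by 8.6% of the tested genes with all samples and by 8.56% without WT LPS replicate 3. The log2 difference was above 0 at 71.8% and 58.3% of the tested genes. Groups that did not overlap were far more frequent than genes that passed: with all samples 15.3% of the tested genes had all cGAS-/- LPS values above all WT LPS values and 5.1% had them below, and without WT LPS replicate 3 these shares were 18.8% and 16.2%.

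**Figure D1:**
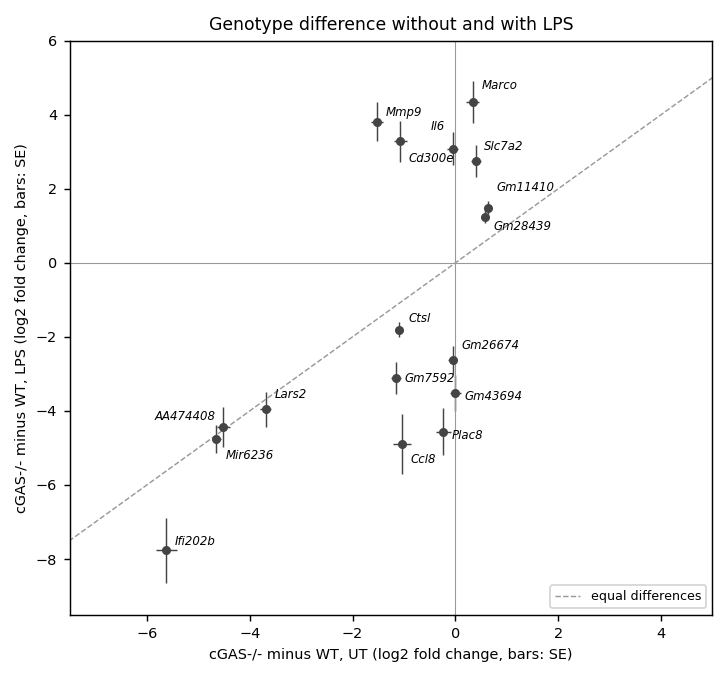
Log2 difference between cGAS-/- and WT (log2(TPM + 1) scale) without LPS on the x axis and with LPS on the y axis, for 17 genes that passed with all samples, with bars for the SE. Mir6236, AA474408 and Lars2 lie near the line of equal differences and Ifi202b is far below 0 on both axes, whereas Mmp9 and Cd300e are below 0 without LPS and above 0 with it, and Marco and Il6 lie near 0 without LPS.

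The 250 bases before the annotated starts of Il6, Marco and Ifi202b are shown, because Il6 is a standard NF-kB target and because Marco and Ifi202b had the largest rise and the largest fall of the protein-coding genes that passed. The sequences are from RefSeq on GRCm38.p6 and are read 5' to 3' on the strand of the gene. Capitals mark matches, on either strand, to a kappaB form (GGGA and TTCC with 2 bases between them), an AP-1 form (TGANTCA), a C/EBP form (TTGCNNAA) or an interferon response form (GAAA and GAAA with 2 bases between them). Among 32851 promoters of this length, 1.21% held the kappaB form, 6.75% the AP-1 form, 9.56% the C/EBP form and 2.98% the interferon response form. The Il6 window, chr5:30012864-30013113 (+), held an AP-1, a C/EBP and a kappaB match, while the Marco window, chr1:120505025-120505274 (-), and the Ifi202b window, chr1:173982845-173983094 (-), held 0. The last sequence is the mature miRNA of Mir6236, chr9:110281353-110281371 (+), shown because its locus had the lowest adjusted p of all genes, with its seed (bases 2 to 8) in capitals.
Il6: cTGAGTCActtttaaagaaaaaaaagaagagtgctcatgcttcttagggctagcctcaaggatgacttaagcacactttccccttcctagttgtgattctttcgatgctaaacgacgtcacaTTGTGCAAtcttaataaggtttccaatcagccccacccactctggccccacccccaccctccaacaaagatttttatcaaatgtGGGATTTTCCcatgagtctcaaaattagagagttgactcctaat
Marco: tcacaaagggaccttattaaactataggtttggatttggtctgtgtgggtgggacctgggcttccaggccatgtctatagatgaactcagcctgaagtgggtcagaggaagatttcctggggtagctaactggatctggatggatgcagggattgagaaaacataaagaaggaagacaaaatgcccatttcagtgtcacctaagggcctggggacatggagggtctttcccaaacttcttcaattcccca
Ifi202b: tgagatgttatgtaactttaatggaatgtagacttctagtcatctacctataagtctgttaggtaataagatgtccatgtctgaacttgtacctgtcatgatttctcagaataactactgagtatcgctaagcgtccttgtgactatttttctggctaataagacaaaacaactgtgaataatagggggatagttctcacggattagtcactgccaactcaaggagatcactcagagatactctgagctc
mmu-miR-6236: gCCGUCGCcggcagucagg
A match to these letters is a description of the window and not a measured binding site.

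The targeted gene was read first. Cgas was at 0.0703, 0.0919 and 0.0975 TPM in the cGAS-/- LPS samples and at 1.19, 2.88 and 3.25 TPM in the WT LPS samples. The groups did not overlap, and every sample was on the side its label gives. The log2 difference was -1.60 (SE 0.44, limma adjusted p = 0.287), and -1.42 (SE 0.38, adjusted p = 0.163) without WT LPS replicate 3. In UT cells, where the WT samples lay at 2.67, 2.89 and 2.68 TPM and the cGAS-/- samples at 0.0841, 0.110 and 0.291 TPM, the difference of -1.69 passed with an adjusted p of 1.1e-06. Of the Cgas transcript, 35.8% is shared at 95% identity or more with other annotated genes, so reads could have been split between them. Of the 19 tested genes for DNA sensing 0 passed with LPS by limma. By unadjusted p under 0.05 the count was 1, Cgas itself, and 4, all lower, without WT LPS replicate 3, against 1.46% and 3.71% of all tested genes lower in those fits. Ifnb1, which encodes interferon-beta, was at 3.42, 3.24 and 2.58 TPM in cGAS-/- LPS and at 8.43, 7.21 and 9.60 TPM in WT LPS. Its groups did not overlap, with a log2 difference of -1.20 (adjusted p = 0.576; -1.12, adjusted p = 0.483, without WT LPS replicate 3).

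Marco (chr1:120402267-120432753), a class A scavenger receptor with which macrophages bind bacteria, was the gene with the largest rise among the protein-coding genes that passed. It was at 265, 265 and 269.7 TPM in cGAS-/- LPS (266 ± 2.86, SD, n = 3) and at 9.75, 11.6 and 15.7 TPM in WT LPS (12.3 ± 3.06, SD, n = 3). The knockout samples lay close together and far above every WT sample. The log2 difference was 4.35 (SE 0.57, limma adjusted p = 0.0134), and 4.52 (SE 0.44, adjusted p = 0.00229) without WT LPS replicate 3. In UT cells Marco was between 0.480 and 1.33 TPM in both genotypes, and the UT difference of 0.34 did not pass (adjusted p = 0.109). Marco was the 1 of 20 tested scavenger and C-type lectin receptors to pass with all samples, and without WT LPS replicate 3 Cd68, Mrc1 and Cd5l passed as lower. Clec4a1, a C-type lectin receptor named for its high level, was at 642, 660.5 and 662 TPM in cGAS-/- LPS and at 587, 957 and 551 TPM in WT LPS, so that its groups overlapped, whereas in UT cells it was lower in cGAS-/- by 2.03 on the log2 scale (adjusted p = 3.85e-09). Cd300e (chr11:114942743-114957500), an activating receptor of the CD300 family on myeloid cells, was at 31.9, 30.1 and 30.9 TPM in cGAS-/- LPS and at 3.69, 4.04 and 0.485 TPM in WT LPS. It rose by 3.29 (SE 0.55, adjusted p = 0.0494), and by 2.72 (SE 0.39, adjusted p = 0.0108) without WT LPS replicate 3, while in UT cells it was lower in cGAS-/- (-1.07, adjusted p = 0.000181).

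Il6 (chr5:30218112-30224979), which encodes the inflammatory cytokine interleukin-6 and whose promoter is printed above, was at 14.8, 12.5 and 15.5 TPM in cGAS-/- LPS and at 1.07, 0.772 and 0.559 TPM in WT LPS. All WT samples were near or below 1 TPM, and the lowest knockout sample was above 12 TPM. Il6 rose by 3.09 (SE 0.45, limma adjusted p = 0.0188), and by 2.99 (SE 0.36, adjusted p = 0.00454) without WT LPS replicate 3. In UT cells it was below 1 TPM in all 6 samples. Of the 15 tested LPS-induced cytokines it was the 1 that passed. Il12a, which encodes the p35 subunit of interleukin-12, was at 4.32, 3.70 and 2.72 TPM in cGAS-/- LPS and at 0.293, 0.244 and 0 TPM in WT LPS, a difference of 1.95 (SE 0.64) whose adjusted p was 0.389 (1.84, adjusted p = 0.178, without WT LPS replicate 3). Il1b, which encodes interleukin-1 beta, was at 915, 771 and 856 TPM against 127, 156 and 45.4 TPM. Neither group pair overlapped, but the Il1b difference of 3.11 had an SE of 1.52 and an adjusted p of 0.603 (2.57, adjusted p = 0.628, without WT LPS replicate 3). Of the 15 cytokines 7 were above and 4 below WT LPS without overlap (15.3% and 5.1% of all tested genes), or 7 and 6 without WT LPS replicate 3 (18.8% and 16.2%). Il10, for the anti-inflammatory interleukin-10, was at 8.17, 7.97 and 8.62 TPM in cGAS-/- LPS, between WT LPS replicate 3 at 6.78 TPM and the other WT samples, the higher of them at 29.1 TPM. Its difference was -0.96 (adjusted p = 0.845), and -1.57 (adjusted p = 0.739) without WT LPS replicate 3, where its groups did not overlap. Il1rn, for the interleukin-1 receptor antagonist, was at 66.6, 64.3 and 64.4 TPM against 156, 298 and 540.3 TPM, with a difference of -2.15 (adjusted p = 0.366), or -1.71 (adjusted p = 0.241) without WT LPS replicate 3.

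Mmp9 (chr2:164780439-164797771), a secreted protease that cleaves gelatin and collagen, was at 51.8, 48.9 and 47.6 TPM in cGAS-/- LPS and at 4.18, 4.06 and 0.744 TPM in WT LPS. It rose by 3.82 (SE 0.53, limma adjusted p = 0.0156), and by 3.30 (SE 0.38, adjusted p = 0.0035) without WT LPS replicate 3. The order was the opposite in UT cells, with 0.465, 0.518 and 0.766 TPM in cGAS-/- and 2.84, 4.09 and 3.77 TPM in WT (-1.52, adjusted p = 8.53e-06). Ctsl (chr13:64507151-64518704), the lysosomal protease cathepsin L, moved the other way. It was at 256, 256 and 251 TPM in cGAS-/- LPS and at 684, 820.1 and 1269.7 TPM in WT LPS, and fell by 1.81 (SE 0.21, adjusted p = 0.00654), or by 1.56 (SE 0.12, adjusted p = 0.000441) without WT LPS replicate 3. The fall was present in UT cells too (-1.09), and 31.6% of the Ctsl transcript is shared with other annotated genes. Of the 16 tested matrix proteases and inhibitors, Mmp9 passed with all samples, and without WT LPS replicate 3 it was joined by 4 lower genes, Ctsk, Ctss, Timp2 and Spp1. Ctss, cathepsin S, was at 1793, 1919 and 1821 TPM against 2872, 3662 and 2953 TPM.

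Slc7a2 (chr8:41315431-41375345), a transporter that brings arginine into the cell, was at 35.8, 30.4 and 31.4 TPM in cGAS-/- LPS and at 3.87, 7.55 and 1.88 TPM in WT LPS. It rose by 2.76 (SE 0.43, limma adjusted p = 0.0314), and by 2.37 (SE 0.33, adjusted p = 0.00947) without WT LPS replicate 3. Without LPS it was also higher in cGAS-/-, at 0.594, 0.686 and 0.785 TPM against 0.381, 0.247 and 0.226 TPM (0.39, adjusted p = 0.0202). It was the 1 of 12 tested genes for arginine and polyamine metabolism that passed, in both fits. Of 19 tested genes for cholesterol synthesis and efflux, 9 were higher and 0 lower in cGAS-/- LPS without overlap (15.3% and 5.1% of all tested genes), or 10 and 3 without WT LPS replicate 3 (18.8% and 16.2%), so that the lower share there was close to that of all genes. Idi1, an enzyme of cholesterol synthesis, passed without WT LPS replicate 3 (9.92, 9.45 and 9.79 TPM against 2.14, 3.10 and 0.592 TPM), whereas Apoe, which carries lipid out of macrophages, passed in the lower direction there.

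**Figure D2:**
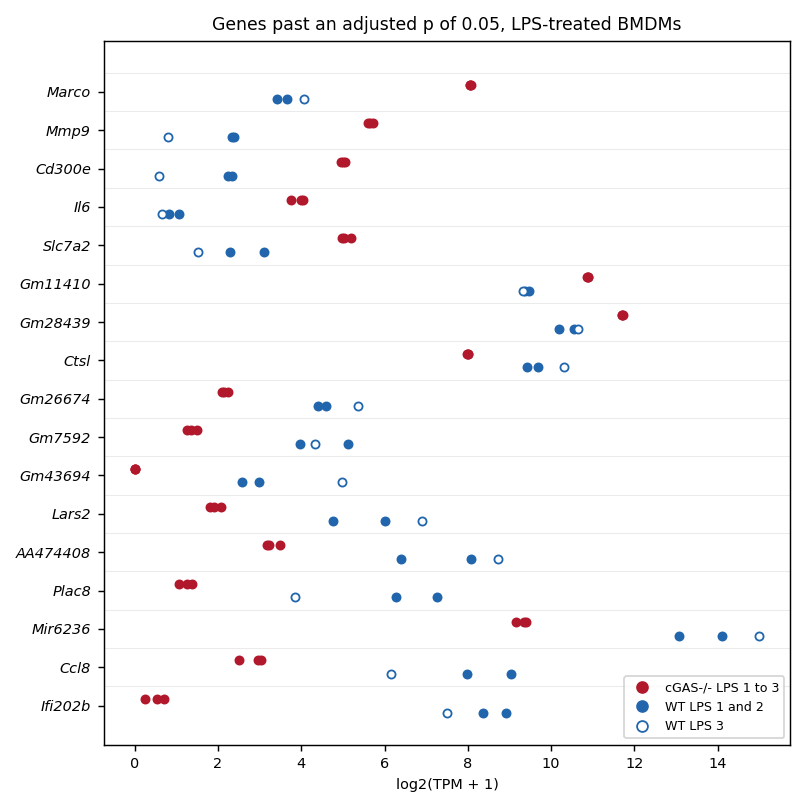
Level of 17 genes that passed with all samples, as log2(TPM + 1) on the x axis, with 1 row per gene and 1 point per LPS-treated sample (red cGAS-/-, blue WT, open circle WT LPS replicate 3). In every row the 3 red points lie beyond all 3 blue points, and the blue points are the more widely spread.

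Ifi202b (chr1:173790134-173810414) was the protein-coding gene with the largest fall. It belongs to the interferon-inducible p200 family, whose members bind DNA, and its level is known to differ between inbred mouse strains. The WT mice were purchased and the cGAS-/- mice came from another laboratory, so the knockout and any difference in genetic background around Ifi202b cannot be told apart in these samples. It was at 0.629, 0.447 and 0.178 TPM in cGAS-/- LPS and at 326, 484 and 181 TPM in WT LPS. The knockout samples were all below 1 TPM and the WT samples all above 180 TPM. The log2 difference was -7.77 (SE 0.88, limma adjusted p = 0.00654), and -8.15 (SE 0.69, adjusted p = 0.000901) without WT LPS replicate 3. The same contrast was present in UT cells, at 0.349, 0 and 0.823 TPM against 62.1, 71.8 and 62.7 TPM (-5.62, adjusted p = 2.03e-08). Other members of the family were measured too. Ifi204 was at 242, 249.6 and 231 TPM against 237, 431 and 206 TPM, and Ifi209 at 169, 172 and 169.8 TPM against 139, 310.4 and 143 TPM, and neither passed (adjusted p = 0.932 and 0.963, or 0.964 and 0.999 without WT LPS replicate 3). Ifi209 was lower in cGAS-/- in UT cells (-1.29, adjusted p = 8.52e-06), and 98.7% of its transcript is shared with Ifi214, so reads of these genes could have been split. Ifi214 itself was at 2.14, 2.84 and 2.28 TPM in cGAS-/- LPS and between 4.44 TPM, in replicate 3, and 23.6 TPM in WT LPS. It passed as lower without WT LPS replicate 3 (-2.54, adjusted p = 0.00863) but not with all samples (-1.92, adjusted p = 0.256).

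Ccl8 (chr11:82006007-82007625), a chemokine that attracts monocytes, was at 4.66, 7.16 and 6.82 TPM in cGAS-/- LPS and at 528, 251 and 70.5 TPM in WT LPS. The WT samples spread widely, but the lowest was still far above the highest knockout sample. Ccl8 fell by 4.90 (SE 0.80, limma adjusted p = 0.0441), and by 5.68 (SE 0.59, adjusted p = 0.00258) without WT LPS replicate 3. Plac8 (chr5:100701591-100720111), a small cysteine-rich protein of immune cells, was at 1.61, 1.09 and 1.38 TPM against 152, 76.7 and 13.4 TPM. It fell by 4.56 (SE 0.64, adjusted p = 0.0156), and by 5.53 (SE 0.41, adjusted p = 0.000441) without WT LPS replicate 3. In UT cells Plac8 was below 1 TPM in every sample. Of the 19 tested chemokines 5 were higher and 7 lower in cGAS-/- LPS without overlap (15.3% and 5.1% of all tested genes), or 5 and 11 without WT LPS replicate 3 (18.8% and 16.2%). Among those above WT were the neutrophil attractants Cxcl1 (133, 114 and 123 TPM against 21.0, 30.9 and 4.40 TPM) and Cxcl3 (182, 149 and 141 TPM against 33.3, 23.6 and 5.31 TPM), neither of which passed (adjusted p = 0.482 and 0.499, or 0.429 and 0.428 without WT LPS replicate 3). Below WT, Ccl2 (146, 139.9 and 142 TPM against 722, 555 and 171 TPM), Ccl6 and Cxcl11 passed without WT LPS replicate 3 (adjusted p = 0.0371, 0.00258 and 0.0108), together with Ccl8. Ccl5, at 6426, 6546 and 6265 TPM against 10512, 7327 and 3957 TPM, overlapped between the groups through WT LPS replicate 3. The Ccl5 difference was -0.07 (adjusted p = 0.994), and -0.45 (adjusted p = 0.999) without that sample, where the knockout samples lay below both WT samples.

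The interferon-stimulated effectors, a list of 43 tested genes that block viral replication or regulate the response, were described as a group. With all samples 0 passed by limma, and by unadjusted p under 0.05 the count was 0 higher and 3 lower, against 7.15% and 1.46% of all tested genes. Without WT LPS replicate 3 again 0 passed, with 0 higher and 14 lower by unadjusted p, against 4.85% and 3.71%. Their median log2 difference was -0.30 while that of all tested genes was 0.34, and without WT LPS replicate 3 the medians were -0.68 and 0.09. The list lay 0.64 below the median of all genes with all samples, 0.72 below it with TMM factors and 0.43 below it after quantile normalization. Without overlap, 0 were higher and 10 lower with all samples, against 15.3% and 5.1% of all tested genes. Leaving out WT LPS replicate 3 gave 0 higher and 30 lower without overlap, against 18.8% and 16.2%. Bst2, which tethers virus particles to the cell surface, was at 792, 769 and 742 TPM against 2856, 1294 and 707 TPM. Isg15, a ubiquitin-like modifier, was at 832, 777 and 766 TPM against 2866, 1663 and 341 TPM. Ifi27l2a was at 705, 719.7 and 685 TPM against 6503, 2189 and 967 TPM (-1.77, adjusted p = 0.557, or -2.42, adjusted p = 0.129, without WT LPS replicate 3), and Ifitm3, which blocks virus entry, at 4086, 4156 and 4143 TPM against 13049, 4609 and 1306 TPM (-0.05, adjusted p = 0.987, or -0.91, adjusted p = 0.291). In each of these 4 genes WT LPS replicate 3 was the lowest WT sample, and in Bst2, Isg15 and Ifitm3 it was also below every knockout sample. In UT cells, which share no sample with the LPS groups, 28 of the 43 passed as lower and 0 as higher in cGAS-/-, against 8.7% lower and 5.28% higher of all tested genes.

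**Figure D3:**
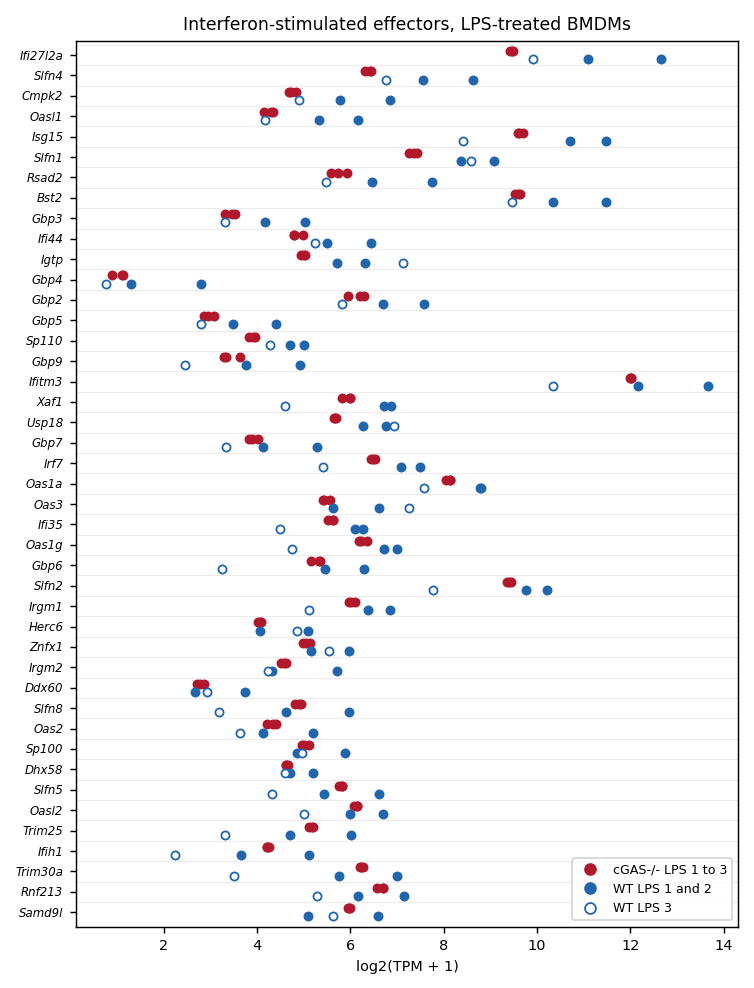
Level of the 43 tested interferon-stimulated effectors as log2(TPM + 1) on the x axis, 1 row per gene and 1 point per LPS-treated sample (red cGAS-/-, filled blue WT LPS replicates 1 and 2, open circle WT LPS replicate 3). In 30 of the rows both filled blue points lie right of all red points, and in 10 rows all 3 blue points do.

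Glycolysis genes lay mostly on the other side of WT LPS. Of 22 tested genes for glucose uptake, glycolysis and lactate export, 14 were above and 0 below WT LPS without overlap, and 17 above and 1 below without WT LPS replicate 3. Among all tested genes 15.3% lay above and 5.1% below, and without WT LPS replicate 3 these shares were 18.8% and 16.2%. The median log2 difference of the list was 0.94 (0.65 without that sample), and in UT cells it was -0.02. For all tested genes the medians were 0.34 (0.09 without that sample) and, in UT cells, -0.03. With limma 0 passed in either fit, and by unadjusted p under 0.05 the counts were 13 higher and 0 lower with all samples (7.15% and 1.46% of all tested genes) while leaving out WT LPS replicate 3 gave 15 higher and 0 lower (4.85% and 3.71%). Hk2, the inducible hexokinase, was at 16.8, 18.0 and 16.4 TPM in cGAS-/- LPS and at 7.10, 9.94 and 1.60 TPM in WT LPS. Ldha, which makes lactate, was at 89.4, 85.7 and 87.8 TPM against 57.8, 65.7 and 23.5 TPM. Hif1a, for the hypoxia-inducible factor, was at 53.5, 51.5 and 55.6 TPM against 18.0, 41.5 and 31.3 TPM, and Egln3, a prolyl hydroxylase acting on that factor, at 25.3, 25.6 and 28.3 TPM against 5.66, 9.07 and 1.32 TPM. Gapdh, the member with the highest level, was at 326, 334 and 334 TPM against 194, 225 and 348 TPM, so that WT LPS replicate 3 alone lay above the knockout samples.

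NF-kB subunits and feedback inhibitors, 18 genes tested, had a median of 0.77 with all samples and 0.33 without WT LPS replicate 3, with 8 and then 9 above WT without overlap and 0 below. All tested genes had medians of 0.34 and 0.09. Without overlap, 15.3% and 18.8% of them lay above WT, and 5.1% and 16.2% below. Irak3, an inhibitor of TLR signalling, was at 57.1, 55.9 and 57.6 TPM against 17.4, 39.5 and 13.3 TPM, and Nfkbia, the inhibitor that holds NF-kB in the cytosol, at 216, 212 and 213 TPM against 144, 136 and 86.2 TPM. None of the 18 passed by limma in either fit, and by unadjusted p under 0.05 the counts were 5 higher with all samples (7.15% of all tested genes) and 4 higher without that sample (4.85%), with 0 lower in both (1.46% and 3.71%). Stress response and amino acid synthesis genes (23 tested) had a median of 0.96, or 0.58 without WT LPS replicate 3. Without overlap, 14 of them lay above and 0 below WT LPS, against 15.3% and 5.1% of all tested genes. Leaving out WT LPS replicate 3 gave 16 above and 3 below, against 18.8% and 16.2%, so that the lower share was near that of all genes. None of the 23 passed by limma in either fit. By unadjusted p under 0.05, 3 were higher with all samples (7.15% of all tested genes) and 4 without that sample (4.85%), with 0 lower in both (1.46% and 3.71%). Hspa5, a chaperone of the endoplasmic reticulum, was at 100.3, 97.0 and 116 TPM against 53.5, 89.1 and 171 TPM. Cytosolic ribosomal proteins (57 tested) had a median of 0.51, which fell to 0.13 without that sample, close to the 0.09 of all genes there, with 14 higher and 0 lower by unadjusted p with all samples and 6 higher without that sample. The chemoattractant receptors (11 tested) had a median of -1.08, or -0.64 without WT LPS replicate 3. Cx3cr1, the fractalkine receptor, ran against that direction at 3.75, 4.05 and 4.61 TPM against 0.157, 0.218 and 0.872 TPM, and passed without WT LPS replicate 3 (adjusted p = 0.00604).

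The other lists had few members that passed. Their counts without overlap stand against 15.3% above and 5.1% below among all tested genes with all samples, and 18.8% and 16.2% without WT LPS replicate 3, and several are near those shares. Dendritic cell-like maturation genes (11 tested) had 5 above and 1 below WT LPS without overlap, or 6 and 4 without WT LPS replicate 3, where Lad1 passed as higher. Cst7, an inhibitor of cysteine proteases, was the 1 below with all samples, at 18.6, 19.7 and 20.1 TPM against 72.8, 89.9 and 36.5 TPM. Of 22 Fc and paired myeloid receptors 7 lay above and 0 below WT LPS, but 7 above and 9 below without WT LPS replicate 3, where Fcgr3 passed as lower. Fcer1g, their shared signalling chain, was at 1149.6, 1175 and 1124 TPM against 1756, 1109 and 421 TPM. TLR sensing genes (15 tested) had 3 above and 2 below, or 3 and 5 without WT LPS replicate 3, with Tlr2, the receptor for bacterial lipopeptides, at 141, 133 and 136 TPM against 44.9, 96.1 and 21.6 TPM (1.56, limma adjusted p = 0.218, or 1.04, adjusted p = 0.132). NRF2 and redox genes (23 tested) had 10 above and 0 below, or 11 and 3 without WT LPS replicate 3, and Hmox1, which degrades haem, was at 646, 640.0 and 638 TPM against 627, 744 and 123 TPM. Eicosanoid synthesis (11 tested) had 3 above and 1 below, immediate-early factors (17 tested) 2 and 0, iron handling (10 tested) 3 and 1, the IL-10 axis (14 tested) 1 and 2, and cell cycle genes (11 tested) 2 and 1. Without WT LPS replicate 3 these counts became 4 and 2 for eicosanoid synthesis, 2 and 4 for immediate-early factors, 3 and 3 for iron handling, 1 and 5 for the IL-10 axis and 2 and 2 for the cell cycle. Ftl1, the ferritin light chain, was at 2725, 2708 and 2764 TPM against 4351, 3478 and 3663 TPM, with 99.9% of its transcript shared with other genes. By limma 0 genes of the TLR, NRF2, eicosanoid, immediate-early, iron, IL-10 and cell cycle lists passed in either fit. By unadjusted p under 0.05 between 0 and 4 of each list were higher and 0 to 2 lower with all samples (7.15% and 1.46% of all tested genes). When WT LPS replicate 3 was left out, 0 to 6 of each list were higher and 0 to 3 lower (4.85% and 3.71%).

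**Figure D4:**
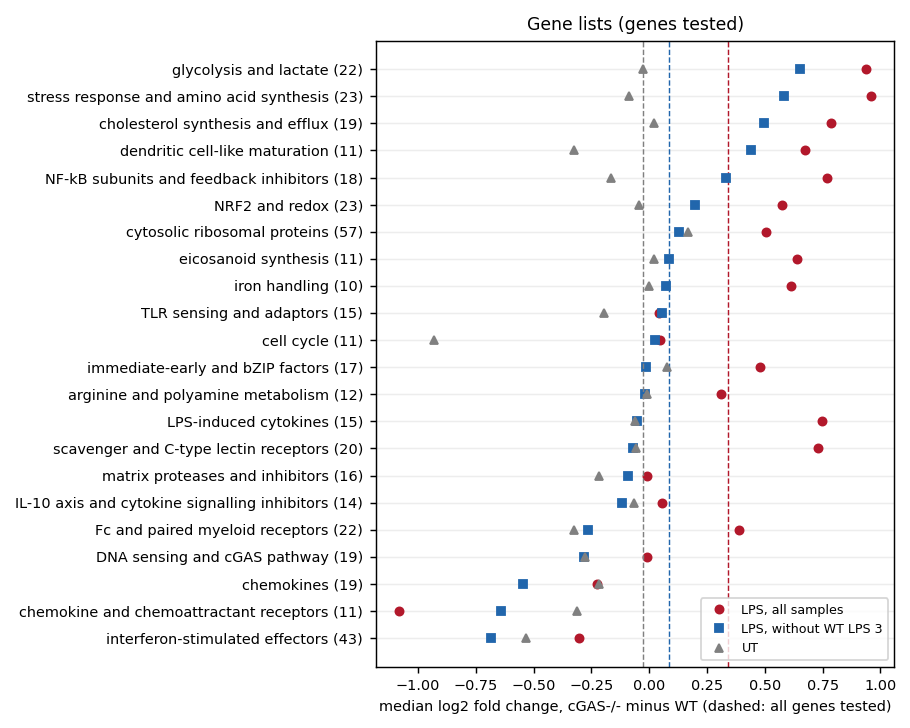
Median log2 difference, cGAS-/- minus WT, of the 22 functional gene lists, with the number of genes tested in brackets: circles are LPS with all samples, squares LPS without WT LPS replicate 3, triangles UT, and dashed lines the medians of all tested genes. The squares lie left of the circles for most lists, interferon-stimulated effectors are lowest by the squares (-0.68) and glycolysis highest (0.65).

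Several macrophage genes passed only when WT LPS replicate 3 was left out, and those named here were chosen after their values were seen. The complement subunit genes C1qa (461, 509 and 478 TPM against 1921, 1862 and 675 TPM), C1qb (1051, 1095 and 1075 TPM against 2863, 2494 and 704 TPM) and C1qc (379, 428 and 391 TPM against 1191, 975 and 317 TPM) were lower in cGAS-/- LPS than in WT LPS replicates 1 and 2. Their limma adjusted p was 0.00203, 0.00772 and 0.0158. In C1qb and C1qc, WT LPS replicate 3 lay below the knockout samples. Apoe was at 732, 737 and 729.9 TPM against 2028, 1779 and 298 TPM, so its difference was -1.37 (adjusted p = 0.00278) without that sample and -0.48 (adjusted p = 0.796) with it. Lyz2, for the macrophage lysozyme, was higher in cGAS-/- LPS, at 33426, 32927 and 33026 TPM against 15701, 16599.9 and 26384 TPM (1.04, adjusted p = 0.0035, without WT LPS replicate 3), and 40.7% of its transcript is shared with other genes. Itgal, an integrin subunit of leukocytes, was at 46.6, 46.3 and 44.2 TPM against 6.43, 11.3 and 1.58 TPM (2.29, adjusted p = 0.0124). Of the 54 genes lower without that sample, 31 had all 3 WT LPS samples above the knockout samples, while all of the 27 higher genes had all 3 below. Of the 81 genes, 42 also passed in UT cells in the same direction and 4 in the opposite direction, where 14% of all tested genes passed (5.28% higher and 8.7% lower). For the 18 genes that passed with all samples these counts were 10 and 2, Mmp9 and Cd300e being the 2.

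The remaining genes that passed were mostly lower in cGAS-/-, and most are not protein coding. Mir6236 (chr9:110110355-110110477), the locus of the miRNA printed above, was at 675, 573 and 649 TPM in cGAS-/- LPS and at 8636, 17588 and 32731 TPM in WT LPS. It fell by 4.76 (SE 0.38, limma adjusted p = 0.000797), and by 4.29 (SE 0.28, adjusted p = 0.000441) without WT LPS replicate 3. The libraries were strand-specific mRNA libraries, so this value counts reads over the annotated locus and is no measure of the mature miRNA. AA474408 was at 8.09, 8.32 and 10.2 TPM against 83.8, 269 and 419.8 TPM, and Lars2, which encodes the mitochondrial leucyl-tRNA synthetase, at 2.74, 2.52 and 3.23 TPM against 26.1, 63.3 and 117 TPM. Lars2 fell by 3.95 (SE 0.47, adjusted p = 0.00723), and by 3.45 (SE 0.37, adjusted p = 0.00258) without WT LPS replicate 3. In all of these 3 genes WT LPS replicate 1 was the lowest and WT LPS replicate 3 the highest WT sample, and the UT differences were of like size (-4.65, -4.51 and -3.69). Gm43694 was listed at 0 in every cGAS-/- LPS and every UT sample and at 4.93, 6.89 and 30.4 TPM in WT LPS, and its transcript is shared in full with other annotated genes. Gm7592, a predicted gene whose transcript is also shared in full, was at 1.80, 1.56 and 1.37 TPM against 14.7, 33.5 and 19.1 TPM, and the noncoding Gm26674 at 3.75, 3.25 and 3.45 TPM against 20.2, 23.1 and 40.2 TPM. They fell by 3.11 and 2.62 (3.18 and 2.34 without WT LPS replicate 3). The pseudogenes Gm11410 (1852, 1898 and 1889.6 TPM against 706, 659.6 and 636 TPM) and Gm28439 (3339, 3378 and 3314 TPM against 1159.5, 1499 and 1594 TPM) rose. The Gm28439 transcript is shared in full with the mitochondrial gene mt-Nd4, so reads of the 2 cannot be told apart.

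**Figure D5:**
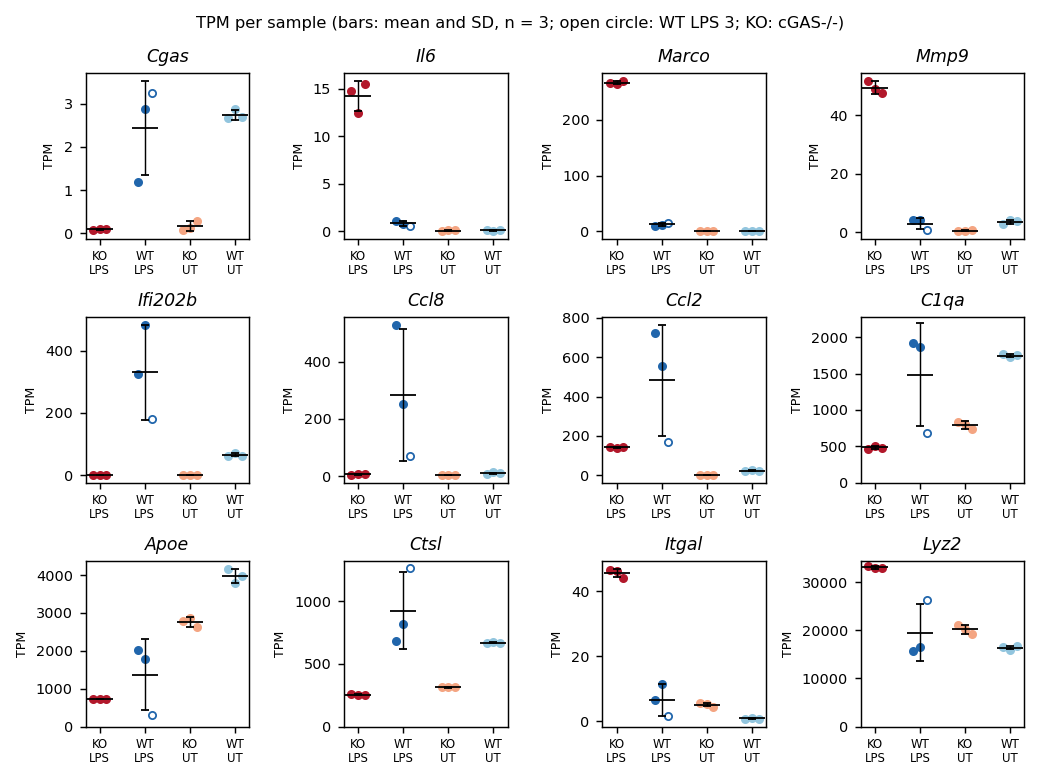
TPM of 12 genes in each sample of the 4 groups (KO is cGAS-/-), with the mean and SD of 3 samples as bars and WT LPS replicate 3 as an open circle; each panel has its own linear axis. Marco, Il6 and Mmp9 are high in cGAS-/- LPS alone, while Apoe and C1qa show WT LPS replicate 3 apart from the other WT LPS samples.

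Markers of macrophages and of other cells were read in the same samples. All 23 listed macrophage markers were above 0 in every LPS sample, with summed levels of 41150 to 41448 TPM in cGAS-/- LPS and 30767 to 31273 TPM in WT LPS. Most of the sum was Lyz2, and the other 22 markers summed to 8023, 8313 and 8124 TPM in cGAS-/- LPS and to 15133, 14673 and 4383 TPM in WT LPS, so that without Lyz2 the knockout samples lay below WT LPS replicates 1 and 2 and above WT LPS replicate 3. Of the 23, 0 passed by limma with all samples. Without WT LPS replicate 3, 1 passed as higher (Lyz2) and 7 as lower, against 0.33% and 0.661% of all tested genes. By unadjusted p under 0.05, 3 were higher and 3 lower with all samples (7.15% and 1.46% of all tested genes). Without WT LPS replicate 3, 2 were higher and 11 lower by unadjusted p (4.85% and 3.71%). The 12 B cell markers listed summed to 3.16 to 9.12 TPM in cGAS-/- LPS and to 30.7 to 45.7 TPM in WT LPS. That sum was mostly the immunoglobulin light chain gene Igkc, at 6.68, 1.79 and 3.20 TPM against 36.0, 36.1 and 27.2 TPM. The same list was lower in cGAS-/- UT (20.4 to 29.0 TPM) than in WT UT (109 to 135 TPM). The 12 neutrophil markers summed to 446 to 502 TPM against 141 to 529 TPM, most of it in the knockout samples being Lcn2, which macrophages also make with LPS. The 13 T and NK cell markers were at or below 1.02 TPM in sum in every LPS sample, with Cd3e, Nkg7, Ncr1 and Prf1 at 0. Erythroid markers summed to 3.69 to 15.8 TPM against 1.88 to 38.7 TPM, with Car1 and Slc4a1 at 0, and fibroblast markers to 3.93 to 4.80 TPM against 6.53 to 20.7 TPM. Dendritic cell markers summed to 0.56 to 1.06 TPM against 1.12 to 2.36 TPM, and mast cell markers to 0.26 to 0.67 TPM against 0.40 to 1.68 TPM. The part of these markers and of WT LPS replicate 3 in the differences above was not tested.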

How the data were processed

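RNA-seq libraries of 12 BMDM samples were analysed, 3 per genotype and treatment. According to the submitters' processing notes, reads were handled with fastp and STAR, and kallisto quantified them against GRCm39. The table deposited by the authors gives 1 value per gene symbol and sample, which was read as TPM averaged over the transcripts of a symbol. This was inferred from the values, since 81.8% of 8028 values with many decimals were a short decimal divided by some integer of at most 60, which held for 7.46% of randomly altered values. Depth per sample is unknown, so no counting intervals are given, and the columns do not share a common total.

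Values were analysed as log2(TPM + 1) for 8170 genes at 1 TPM or more in at least 3 of the 6 LPS samples. limma 3.58.1 in R 4.3.3 was fitted to all 12 samples with a mean and a variance weight per group, a trend in eBayes and Benjamini-Hochberg adjustment, and again without WT LPS replicate 3. A gene was called when its adjusted p was under 0.05 and its absolute log2 difference over 2. On simulated data of this comparison with 8170 genes, the fit recovered 66% of changed genes with 6.38% false calls. In the simulation 200 genes were changed by 3 on the log2 scale, and all samples of a group shared the same spread. It held no sample set apart as WT LPS replicate 3 is, so these rates do not cover the effect of that sample. Replicate numbers did not pair the samples, with correlations of same-numbered deviations of -0.005, 0.016 and 0.005.

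The genes of the 22 functional and 8 marker lists, and the tests, were chosen with earlier results of these data known. Named genes were the largest rises and falls among called genes that did not overlap and passed without WT LPS replicate 3 (up to 10 protein-coding and 3 of other types in each direction), up to 3 passed members of each list or otherwise its members of highest mean level to make up 2, and Cgas, Il6, Il12a and Marco. Further members were named to show a list and were chosen after their values were seen. Alternatives were another pseudocount, filter, scaling, variance model, set of samples and a replicate block. Sequence shared between transcripts was found with blastn (95% identity, 100 bases). Of the 18 genes that passed, 1 is counted but not reported here by name.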

Additional observations from a re-analysis of the deposited data

Results flagged for a closer look

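For 8 genes the difference between cGAS-/- and WT with LPS differed from that in UT cells by a test of the interaction term (limma, adjusted p under 0.05; 14 genes, 0.171% of those tested, passed this test in all). Values are the LPS difference minus the UT difference on the log2(TPM + 1) scale.

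Mmp9, the gelatinase, had the largest of these at 5.34 (adjusted p = 0.00882), since it was lower in cGAS-/- without LPS and higher with it. The myeloid receptor Cd300e did the same, at 4.36 (adjusted p = 0.0208). Marco, at 4.01 (adjusted p = 0.0276), and Il6, at 3.14 (adjusted p = 0.0276), were near 0 TPM without LPS in both genotypes and rose more in the knockout samples. For the lectin receptor Clec4a1 the value of 1.98 (adjusted p = 0.0208) came from a UT difference of -2.03 beside an LPS difference of -0.05.

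Plac8, at -4.32 (adjusted p = 0.0298), and the long noncoding or predicted genes Gm26674, at -2.57 (adjusted p = 0.0276), and Gm43694, at -3.51 (adjusted p = 0.0276), were lower in cGAS-/- with LPS alone. Gm43694 was listed at 0 in all cGAS-/- and all UT samples, so its value is set by the pseudocount and is no fold. Without WT LPS replicate 3 all 8 passed again in the same direction, at 4.82 for Mmp9, 3.79 for Cd300e, 4.19 for Marco, 3.04 for Il6, 1.83 for Clec4a1, -5.30 for Plac8, -2.29 for Gm26674 and -2.77 for Gm43694, with adjusted p of 0.00107 to 0.0124 (limma). No cause was tested for any of these.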

How the results depend on the processing

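The number of genes past an adjusted p of 0.05, and of genes called higher and lower, was 18, 6 and 9. These became 5, 0 and 3 with a pseudocount of 0.1; 53, 9 and 11 with a pseudocount of 5; 15, 5 and 8 with no trend; 16, 9 and 6 with protein-coding genes only, where more genes were called higher than lower; 42, 10 and 16 with no filter; 6, 0 and 4 with a filter of 5 TPM; 46, 11 and 17 with TMM factors; 87, 12 and 26 after quantile normalization; 7, 2 and 5 with the 6 LPS samples alone; 264, 34 and 40 with equal variances; 284, 20 and 35 with weights per sample; and 2, 0 and 2 with a test against a log2 difference of 1. On simulated data 76.4% of calls by adjusted p were false with equal variances and 5.71% with weights per sample, beside 6.38% in the reported fit. Weights per sample and the reported fit each recovered 66% of changed genes. The simulated samples of a group shared the same spread, as the reported fit assumes, and none was set apart as WT LPS replicate 3 is. These rates therefore cannot show which fit handles that sample better. Leaving out 1 sample at a time gave 1 to 81, 0 to 9 and 1 to 25. Without WT LPS replicate 1 the gene left was Mir6236, without WT LPS replicate 2 there were 2 (Mir6236 and Eif4a-ps4), and without WT LPS replicate 3 there were 81. The replicate block gave 16 genes, 15 of them among the 18; the labels' numbers do not pair the samples.

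Direction turned for the log2 fold change of Ikbke (-0.073 with TMM factors, -0.0209 after quantile normalization), Hspa5 (-0.042 with TMM factors), Ifitm3 (0.14), Clec4a1 (0.079) and Rplp1 (0.12) after quantile normalization, and Ifi209 (0.0017), Fcer1g (-0.34), Tyrobp (-0.24), Txn1 (-0.21), Rps29 (-1.03) and Mcm6 (0.020) with weights per sample. Leaving out 1 sample turned Ccl5 (-0.45 to 0.25), C3ar1 (-0.26 to 0.83), Ikbke (-0.042 to 0.39), Junb (-0.015 to 1.12), Irgm1 (-0.58 to 0.28), Ifi204 (-0.41 to 0.12), Ifi209 (-0.31 to 0.27), Ifitm3 (-0.91 to 0.75), Clec4a1 (-0.19 to 0.20), Fcer1g (-0.28 to 0.75), Tyrobp (-0.26 to 0.95), Txn1 (-0.20 to 0.72), Hmox1 (-0.091 to 1.20), Hspa5 (-0.25 to 0.58), Apoe (-1.37 to 0.0084), Rplp1 (-0.46 to 0.15) and Rps29 (-0.70 to 1.24). None of these passed in the fit with all samples. The cause was not tested.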
